A study of Mus musculus with 8 samples.

Results

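The genes described here are the classical and related cadherins, the claudins and the catenins, chosen from the deposited gene table by name: CDH or CLDN followed by digits alone, or CTNNA, CTNNB or CTNND followed by digits alone, in any case and without trailing blanks. This gave 44 genes of the 16419 in the table, namely 19 cadherins, 19 claudins and 6 catenins. They were measured in leukemia cells of 8 transgenic mice on Affymetrix Mouse Exon 1.0 ST arrays, with 1 array per mouse. The 4 ROR1xTCL1 mice carried a ROR1 transgene, which encodes a surface receptor for Wnt5a, together with the TCL1 transgene, an oncogene whose expression in mouse B cells gives a leukemia resembling human chronic lymphocytic leukemia. The 4 TCL1 mice carried the TCL1 transgene alone, so both groups share it and neither is a normal B cell. The promoters of the transgenes, the species of the ROR1 sequence, and the age and sex of the mice are not given in the sources used here. The question put to these genes was whether their expression was lower in ROR1xTCL1 leukemia than in TCL1 leukemia.

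Cadherins are transmembrane proteins that bind cadherins of the neighbouring cell through calcium-dependent extracellular domains. Their cytoplasmic tails hold the catenins: beta-catenin and delta-catenin (p120) bind the tail, and alpha-catenin links beta-catenin to actin. Beta-catenin also acts in the nucleus with LEF and TCF factors in canonical Wnt signalling. Claudins are the strand-forming proteins of tight junctions and set which ions pass between epithelial cells. Most of these proteins are known from epithelium, endothelium and nerve tissue, and lymphocytes circulate without stable junctions of this kind.

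Markers of the labelled cell type were examined first. All 8 B cell markers examined and all 4 of B-1 cells and chronic lymphocytic leukemia were above the median of all genes on all 8 arrays, whereas 1 of 7 epithelial, 1 of 10 endothelial, 0 of 8 stromal fibroblast and 0 of 4 liver markers were. Markers of other blood cells were present too: 5 of 7 erythroid, 4 of 7 T cell, 3 of 8 neutrophil, 3 of 7 monocyte and macrophage and 1 of 7 dendritic cell markers lay above the median on all 8 arrays. The array medians of the log2 scale were 5.03 to 5.09 and the first quartiles 3.52 to 3.71. The headers of the gene table carry a genotype without an animal, so the arrays are called a to d within each group, whereas the probe set table names its samples by replicate 1 to 4. No letter is tied to a number. The brightness of a gene depends on its probes, so the level of each gene is set only against the array's own median or quartiles and against the same gene on other arrays.

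Few of the adhesion genes were bright in these leukemias. Only 4 of 44, or 9.09%, lay above the array median on all 8 arrays, against 44.0% of all genes, and 35 of 44 lay above it on none, against 43.3% of all genes. The 4 were the catenins Ctnnb1 and Ctnna1, the cadherin Cdh17 and the claudin Cldn13. The 5 that passed it on some arrays were Cdh1 on 1, Cdh5 on 2, Cldn1 on 1, Cldn3 on 1 and Ctnnd1 on 1. Below this, 23 of 44 were above the first quartile on all 8 arrays and 16 on none, against 69.6% and 19.6% of all genes. The only member above the third quartile on all 8 arrays was Ctnnb1. In RNA of a whole cell sample, fewer cells of a type and less RNA per cell cannot be told apart.

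**Figure D1:**
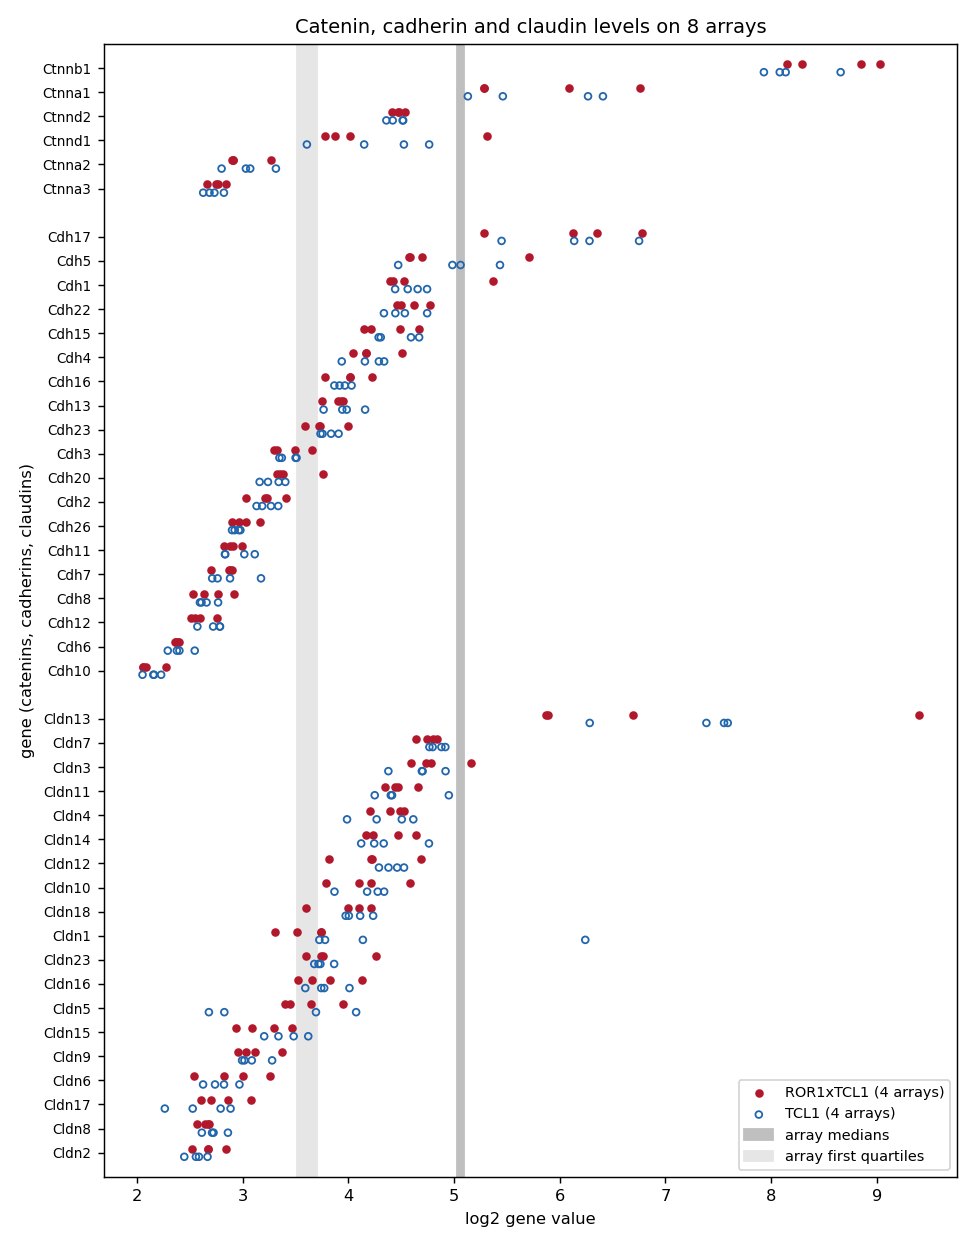
Log2 gene values (horizontal axis) of the 44 catenins, cadherins and claudins (rows, ordered within each family by mean), with ROR1xTCL1 arrays as filled points and TCL1 arrays as open points, 4 each, set slightly lower in the row. The grey bands span the medians and the first quartiles of the 8 arrays; 4 genes lie right of the median band on all arrays, and the points of the groups intermingle in every row.

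No adhesion gene differed between the leukemias by the test used. With limma and Benjamini-Hochberg adjustment over all 16419 genes, 0 of the 44 members were called at an adjusted p under 0.05, and 0.0% of all genes were. At an unadjusted p under 0.05 there were 0 members, against 1.63% of all genes, and the groups' arrays failed to overlap for 0 members, against 1.1% of all genes. The mean was lower in ROR1xTCL1 for 21 of the 44 members (47.7%) and higher for 23, where 54.1% of all genes were lower. The median log2 difference over the members was 0.004, and over all genes it was -0.011. A change of more than 0.5 log2 units in the group means was seen for 1 member, Cldn1, against 1.99% of all genes.

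**Figure D2:**
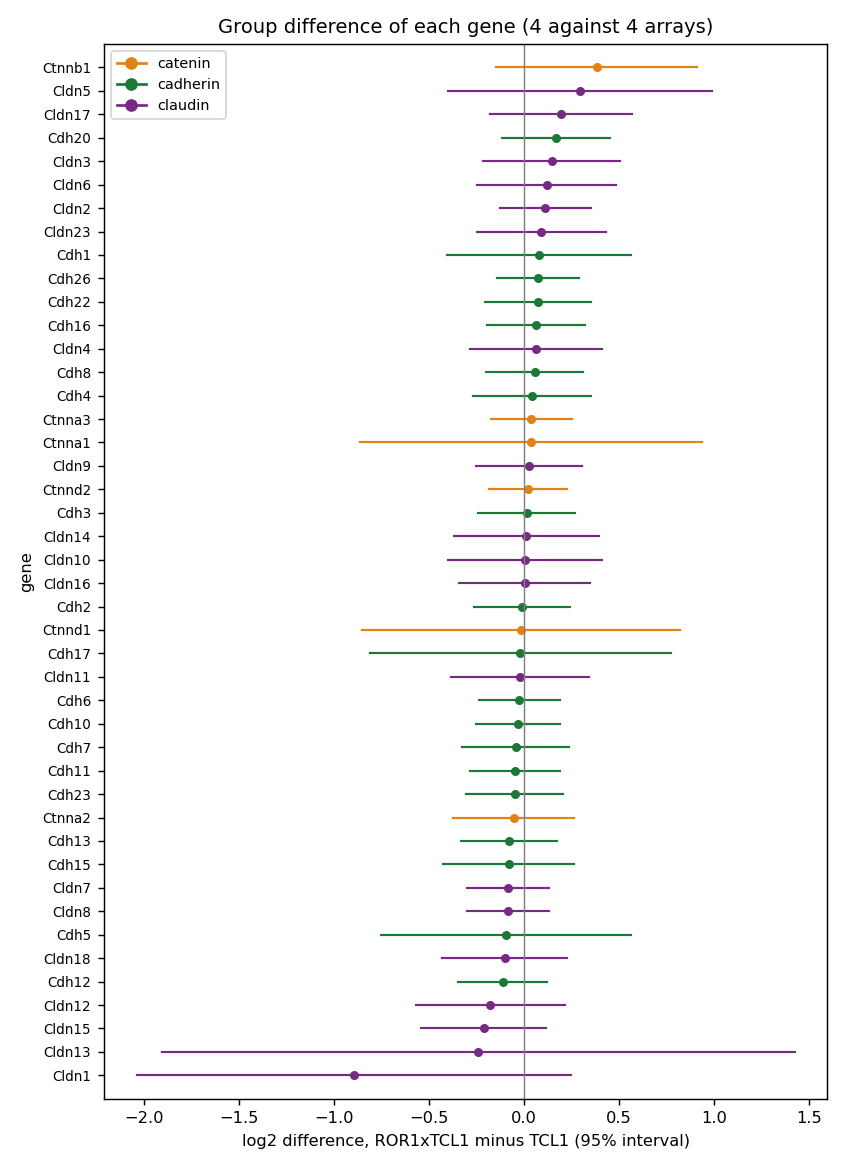
Log2 difference of each of the 44 genes, ROR1xTCL1 minus TCL1, with the 95% interval of the limma fit (4 arrays against 4). Every interval includes 0, the widest belong to Cldn13 and Cldn1, and the differences spread to both sides of 0.

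These counts have a stated reach. The 95% interval of the log2 difference held 0 for all 44 members and stayed within 1 log2 unit on both sides for 42 of them, Cldn1 and Cldn13 being the exceptions. The median half-width was 0.32 log2 units. For 18 of the 44 members both group means were under the lowest first quartile of the arrays (3.52). A fall from so low a level could hardly be read, so these members say little about lower expression.

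Of the 3 families, the catenins had the largest share of bright members. Above the array median on all 8 arrays were 2 of 6 (33.3%), against 44.0% of all genes. Ctnnb1, which encodes beta-catenin, read 8.30, 8.15, 8.86 and 9.03 on ROR1xTCL1 arrays a to d, against 8.14, 8.08, 8.66 and 7.93 on TCL1 arrays a to d. ROR1xTCL1 arrays c and d were highest and TCL1 array d lowest, and the groups overlapped. The log2 difference of 0.38 ± 0.23 (SE) was the largest positive difference among the members, with an interval of -0.15 to 0.91 (adjusted p = 1.0 in limma). Without TCL1 array c it was 0.53, with an unadjusted p under 0.05 and an adjusted p of 1.0 in limma. Across the arrays Ctnnb1 ran against the score of the 8 endothelial markers that are not members, with Pearson's r of -0.881 (adjusted exact permutation p = 0.0769) and Spearman's rho of -0.881 (adjusted exact permutation p = 0.314), adjusted over 88 relations between members and marker lists. Without ROR1xTCL1 array d and TCL1 array c, r was -0.751. The endothelial score spanned only -0.09 to 0.04 on ROR1xTCL1 arrays and -0.06 to 0.07 on TCL1 arrays. Pecam1 was its only marker above the array median, and the others were below it on every array. With the epithelial score, Ctnnb1 had r of -0.774 (adjusted exact permutation p = 0.252), and -0.241 without ROR1xTCL1 arrays c and d. The part of either cell type in the Ctnnb1 values was not tested.

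The split of Ctnnb1 into higher and lower arrays followed another feature of the samples. The arrays with high values of the Y-linked gene Ddx3y were ROR1xTCL1 c (7.70) and d (8.15) and TCL1 c (7.29), against 2.42 to 2.88 on the other 5. These 3 arrays also held the 3 highest values of Ctnnb1. Among the 5 arrays with low Ddx3y, Ctnnb1 read 8.30 and 8.15 in ROR1xTCL1 and 8.14, 8.08 and 7.93 in TCL1, and among the other 3 it read 8.86 and 9.03 in ROR1xTCL1 and 8.66 in TCL1. With a term for high Ddx3y, chosen after the values were seen, the log2 difference of Ctnnb1 was 0.21 ± 0.11 (SE), with an interval of -0.03 to 0.46 (adjusted p = 1.0 in limma). That fit called 0 genes in all and left 0 members at an unadjusted p under 0.05. The smallest unadjusted limma p of a member was that of Ctnnb1, at 0.0806, against 0.136 without the term.

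Ctnna1 encodes the alpha-catenin of most tissues. It read 6.76, 5.28, 6.09 and 5.28 on ROR1xTCL1 arrays a to d, against 6.27, 5.13, 6.41 and 5.46 on TCL1 arrays a to d. Arrays a and c of both groups were high and arrays b and d low, and the means were 5.85 ± 0.72 for ROR1xTCL1 against 5.82 ± 0.62 for TCL1 (SD of 4 arrays). Ctnnd1, the p120 catenin that holds cadherins at the membrane, read 5.31, 3.87, 4.02 and 3.78 on ROR1xTCL1 arrays a to d and 4.53, 4.15, 4.77 and 3.61 on TCL1 arrays a to d. Only ROR1xTCL1 array a stood above its array median, and the difference was -0.02 ± 0.37 (SE). Its r with the score of the erythroid markers, given below with Cldn13, was 0.915 (adjusted exact permutation p = 0.0769) and its rho 0.857 (adjusted exact permutation p = 0.314). Without ROR1xTCL1 arrays a and d, r was 0.768. With the monocyte and macrophage score, Ctnnd1 had r of 0.737 (adjusted exact permutation p = 0.260) and rho of 0.810 (adjusted exact permutation p = 0.351). That r was 0.699 without array a of each group. The part of either cell type in the Ctnnd1 values was not tested. The remaining catenins, Ctnna2, Ctnna3 and Ctnnd2, are known mainly from nerve tissue, heart and testis. They lay below the array median on every array, with mean differences between -0.06 and 0.04.

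Among the cadherins, Cdh17 was the only one above the median throughout. Cdh17 encodes the intestinal LI-cadherin, which lacks the catenin-binding tail and has been described in mouse B cells. It read 6.77, 5.28, 6.13 and 6.35 on ROR1xTCL1 arrays a to d, against 6.75, 5.45, 6.28 and 6.14 on TCL1 arrays a to d. The groups covered nearly the same range, with a difference of -0.02 ± 0.35 (SE) and an interval of -0.81 to 0.77. Animals differed from each other by up to 1.49 log2 units, which was the widest range of any cadherin.

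Cdh1, the E-cadherin of epithelium, read 5.37, 4.53, 4.42 and 4.40 on ROR1xTCL1 arrays a to d and 4.66, 4.44, 4.56 and 4.75 on TCL1 arrays a to d. Apart from ROR1xTCL1 array a it was under the array median on all arrays, and the groups overlapped with a difference of 0.08 ± 0.21 (SE). Cdh5, the VE-cadherin of endothelium, read 5.71, 4.58, 4.70 and 4.57 on ROR1xTCL1 arrays a to d and 5.06, 5.44, 4.47 and 4.99 on TCL1 arrays a to d. It passed the array median on ROR1xTCL1 array a and TCL1 array b only, and differed by -0.10 ± 0.29 (SE). The 8 endothelial markers other than Cdh5 and Cldn5 had a mean level of 3.95 to 4.08 on ROR1xTCL1 arrays and 3.98 to 4.10 on TCL1 arrays. Cdh5 had r of 0.803 with the erythroid score (adjusted exact permutation p = 0.185) and rho of 0.714 (adjusted exact permutation p = 0.461), and r was 0.484 without ROR1xTCL1 arrays a and d. The part of either cell type in the values of Cdh5 was not tested.

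The cadherins by type gave the same picture. Of the 5 type I cadherins (Cdh1, Cdh2, Cdh3, Cdh4 and Cdh15, the classical epithelial, neural, placental, retinal and muscle forms), 2 were lower in ROR1xTCL1 on average and 3 higher. Of the 9 type II cadherins, 6 were lower and 3 higher, and of the 5 others (Cdh13, Cdh16, Cdh17, Cdh23 and Cdh26) 3 were lower and 2 higher. The whole family had a median log2 difference of -0.02, and its differences ran from -0.11 for Cdh12 to 0.17 for Cdh20, both members of the type II group known mainly from the nervous system. Cdh20 read 3.36, 3.76, 3.38 and 3.32 on ROR1xTCL1 arrays a to d and 3.24, 3.40, 3.16 and 3.34 on TCL1 arrays a to d, and Cdh12 read 2.51 to 2.76 in ROR1xTCL1 and 2.57 to 2.79 in TCL1. Both genes were under the array median on every array. Cdh10 (2.06 to 2.27 in ROR1xTCL1 and 2.05 to 2.23 in TCL1) and Cdh7 (2.70 to 2.90 in ROR1xTCL1 and 2.71 to 3.17 in TCL1) were low on every array as well.

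The claudins held the widest ranges of all members. Cldn13 is a claudin of rodents that has been described in mouse red cell precursors. It read 9.40, 5.89, 6.70 and 5.87 on ROR1xTCL1 arrays a to d, against 7.59, 7.56, 7.39 and 6.28 on TCL1 arrays a to d. ROR1xTCL1 array a was far above every other array, and arrays b and d of the same group were the lowest of all 8. The means were 6.96 ± 1.67 in ROR1xTCL1 and 7.20 ± 0.62 in TCL1 (mean ± SD of 4 arrays each), and the difference of -0.24 ± 0.73 (SE) had an interval of -1.90 to 1.42. The range of 3.52 log2 units was wider than that of 99.6% of all genes. Without ROR1xTCL1 array a the difference was -1.05, with an unadjusted p under 0.05 and an adjusted p of 1.0 in limma.

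Cldn13 moved with the markers of red cell precursors. The score of 7 erythroid markers (Alas2, Klf1, Epor, Slc4a1, Hbb-b1, Gata1 and Tfrc), their mean log2 value centred per gene, was 1.66, -0.74, -0.33 and -0.76 on ROR1xTCL1 arrays a to d, against 0.31, 0.31, 0.11 and -0.57 on TCL1 arrays a to d. The order of the 8 arrays was the same for Cldn13 and for the score, with Pearson's r of 0.996 (exact permutation p = 2.48e-05, the smallest the 40320 orderings can give) and Spearman's rho of 1.0 (exact permutation p = 4.96e-05). Adjusted over the 88 relations computed between the 8 members with a range over 1 log2 unit and 11 marker lists, these p-values were 0.00218 and 0.00437. Without ROR1xTCL1 arrays a and d, the farthest from the median of the score, r was 0.995. Among the 16412 genes outside the erythroid list, Cldn13 had rank 1 by its r with the list. The members and relations were picked after the values were seen. The erythroid markers ranged from a mean level of 6.64 to 9.06 on ROR1xTCL1 arrays and from 6.83 to 7.71 on TCL1 arrays, 5 of the 7 were above the array median on all arrays, and their part in the Cldn13 values was not tested.

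Cldn1, a barrier claudin of epithelium and skin, showed the largest difference in group means among the members. It read 3.51, 3.74, 3.30 and 3.74 on ROR1xTCL1 arrays a to d, against 6.24, 3.78, 4.14 and 3.73 on TCL1 arrays a to d. TCL1 array a alone was above the array median, and TCL1 array d lay within the ROR1xTCL1 range. The difference was -0.90 ± 0.50 (SE), with an interval of -2.04 to 0.25 (adjusted p = 1.0 in limma). Without TCL1 array a it was -0.31, and with gene values made from the probe sets it was -0.54 by their mean and -0.38 by their median.

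The neutrophil markers were high on the same TCL1 arrays as Cldn1. The score of 8 neutrophil markers (Ngp, Camp, Ltf, Elane, Mpo, Mmp9, S100a8 and S100a9) was -0.15, -0.19, -0.73 and -0.66 on ROR1xTCL1 arrays a to d and 2.82, -1.31, 1.41 and -1.20 on TCL1 arrays a to d. Pearson's r with Cldn1 was 0.861 (exact permutation p = 0.0126, adjusted p = 0.185 over the 88 relations) and Spearman's rho was 0.429 (exact permutation p = 0.299, adjusted p = 0.731). Without TCL1 arrays a and c, r was -0.285, so the relation rests on these 2 arrays. The markers had a mean level of 5.67 to 6.24 on ROR1xTCL1 arrays and 5.09 to 9.22 on TCL1 arrays, 3 of the 8 were above the array median on all arrays, and their part in the Cldn1 values was not tested. Besides that of Cldn13, none of the 88 relations passed after adjustment, and the next had adjusted p = 0.0769 for r by the exact permutation test. At an unadjusted p under 0.05 there were 13. Those not described elsewhere were Ctnna1 with the erythroid score (r of 0.711), and Ctnna1 (r of -0.794) and Cdh17 (r of -0.770) with the liver score. Each had adjusted exact permutation p = 0.260. Of the 4 liver markers, 0 were above the array median on all arrays, so large r also arose with markers of low level. The part of these cell types was not tested.

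**Figure D3:**
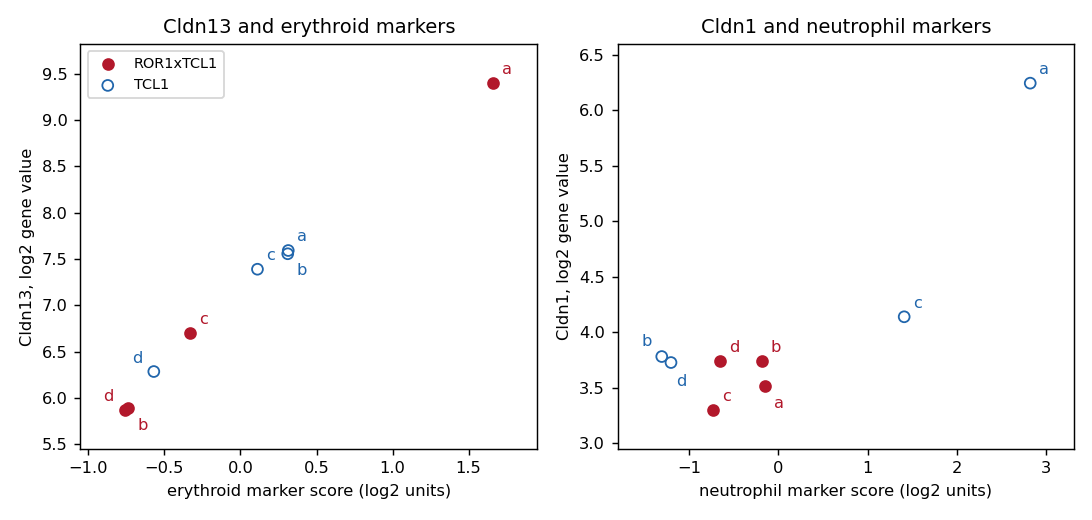
Left, log2 value of Cldn13 against the score of 7 erythroid markers; right, log2 value of Cldn1 against the score of 8 neutrophil markers, with ROR1xTCL1 arrays filled, TCL1 arrays open and letters giving the array. Cldn13 climbs with the erythroid score over all 8 arrays (r = 0.996), whereas the slope of Cldn1 rests on TCL1 arrays a and c.

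Other claudins stayed below the array median on nearly every array. Cldn5, the claudin of endothelium and the blood-brain barrier, read 3.40, 3.65, 3.45 and 3.95 on ROR1xTCL1 arrays a to d and 2.68, 3.69, 2.83 and 4.07 on TCL1 arrays a to d. TCL1 arrays a and c were the lowest and TCL1 array d the highest, and the difference was 0.29 ± 0.31 (SE). Its r with the neutrophil score was -0.909 (adjusted exact permutation p = 0.0769) and its rho -0.833 (adjusted exact permutation p = 0.338). Without TCL1 arrays a and c, r was -0.547. Cldn5 also had r of 0.803 with the stromal fibroblast score (adjusted exact permutation p = 0.204). With the monocyte and macrophage score its r was -0.729 (adjusted exact permutation p = 0.260). Cldn5 lay below the array median on every array, and the part of these cell types in its values was not tested. Cldn3, an epithelial barrier claudin, passed the array median on ROR1xTCL1 array b alone (5.16) and differed by 0.15 ± 0.16 (SE). Cldn12 read 3.82 to 4.69 in ROR1xTCL1 and 4.29 to 4.53 in TCL1, a difference of -0.18 ± 0.17 (SE), and without ROR1xTCL1 array b it was -0.33, with an unadjusted p under 0.05 and an adjusted p of 1.0 in limma. Of the 5 pore-forming claudins, which let ions through the junction (Cldn2, Cldn10, Cldn15, Cldn16 and Cldn17), 1 was lower in ROR1xTCL1 on average and 4 higher. The lower one was Cldn15 (-0.21 ± 0.15, SE), and the largest positive difference among them was that of Cldn17 (0.19 ± 0.17, SE). Of the other 14 claudins, 7 were lower and 7 higher.

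A score over all 44 members, dim ones included, differed little between the groups. The score, the mean over the 44 genes of the log2 value centred on the gene's mean, was 0.04, 0.03, -0.06 and -0.03 on ROR1xTCL1 arrays a to d, against 0.02, 0.01, -0.03 and 0.01 on TCL1 arrays a to d. The lowest and the highest array were both ROR1xTCL1, and the TCL1 arrays lay between them. The means were -0.0046 ± 0.051 for ROR1xTCL1 against 0.0046 ± 0.023 for TCL1 (SD of 4 arrays). Their difference was -0.0091, against -0.016 over all genes. The 18 members with both means under the lowest first quartile count equally in this score. Over the 25 members left by a filter on dim genes the difference was -0.034.

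The families were alike in this. The catenin score was 0.29, -0.13, 0.07 and -0.10 on ROR1xTCL1 arrays a to d and 0.06, -0.12, 0.17 and -0.25 on TCL1 arrays a to d, a difference of 0.067 between means with SDs of 0.19 and 0.18. The cadherin score differed by -0.0018 and the claudin score by -0.040, each less than the SD within either group. No test was made of a score, since the members were chosen with results of these data known.

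**Figure D4:**
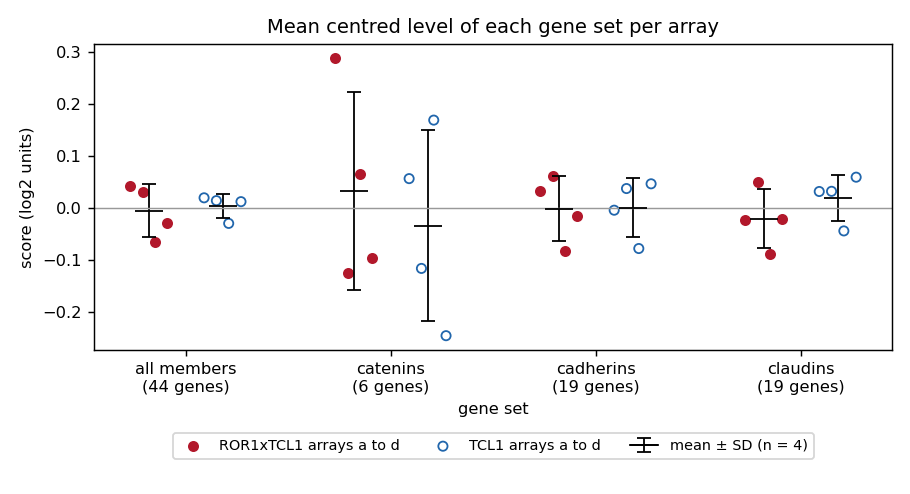
Score per array, in log2 units, for all 44 genes and for each family, with ROR1xTCL1 arrays filled and TCL1 arrays open, arrays a to d from left to right; the bars give the mean and SD (n = 4). The groups overlap in every set, and the catenins, with 6 genes, spread widest.

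The probe set table gave a second reading of the same samples. It held 759 probe sets for the 44 members, 3 to 81 a gene, and with limma and adjustment over all 1236087 probe sets 0 were called, as were 0.0% of all. At an unadjusted p under 0.05 there were 25 (3.29%), against 3.3% of all probe sets, and 48.2% of the members' probe sets were lower in ROR1xTCL1, against 50.2% of all. Averaging the probe sets of each gene put 19 of the 44 members lower in ROR1xTCL1, against 47.3% of genes, and 36 members had the same sign as in the gene table. Of these averages, 0 members had an unadjusted p under 0.05, against 1.89% of genes.

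Single samples were the highest for many probe sets of some genes. All 5 Cldn13 probe sets were highest in ROR1xTCL1 replicate 1, and over the 7 erythroid markers the r with the mean of Cldn13 was 0.992. For Ctnnb1, 19 of 20 probe sets were higher in ROR1xTCL1 on average and 14 were highest in ROR1xTCL1 replicate 4; the median difference over them was 0.43. For Cldn1, 6 of 8 were lower in ROR1xTCL1 and 6 were highest in TCL1 replicate 1. ROR1xTCL1 replicate 1 was the highest sample for 13 of 18 probe sets of Cdh1, 18 of 23 of Ctnna1, 16 of 30 of Ctnnd1 and 7 of 14 of Cdh5. The share of all probe sets that were highest in a given sample was not counted. In the gene table, single arrays were the highest for 9.04% to 18.4% of all genes. Probe sets of a gene share its transcript and are not replicates.

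**Figure D5:**
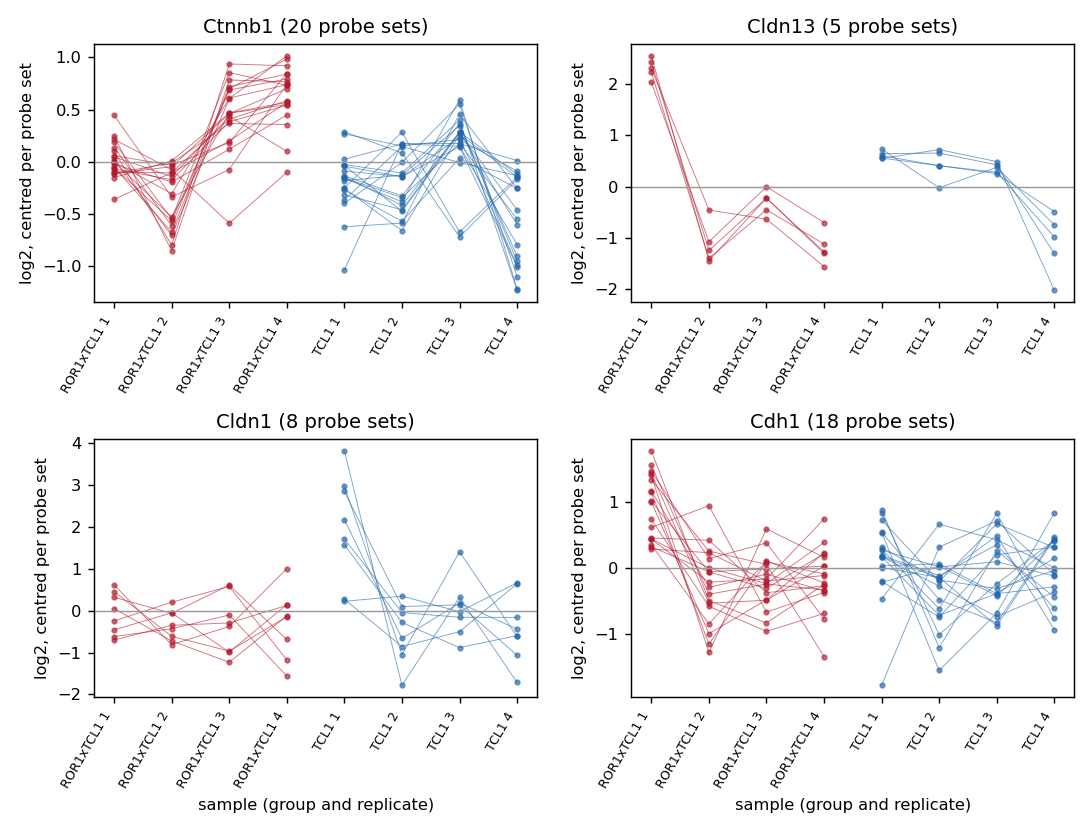
Log2 value of each probe set minus its own mean, by sample, for Ctnnb1, Cldn13, Cldn1 and Cdh1; each line is 1 probe set, with ROR1xTCL1 replicates at left and TCL1 replicates at right. The Cldn13 lines peak together at ROR1xTCL1 replicate 1, most Cldn1 lines at TCL1 replicate 1, and most Ctnnb1 lines at ROR1xTCL1 replicate 4.

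Another 7 genes of these families had probe sets but no row under such a name in the gene table: Cdh9, Cdh18, Cdh19, Cdh24, Cldn19, Cldn20 and Cldn22. Their mean values differed by -0.05 to 0.18 between groups, apart from Cldn20. Its 1 probe set read 6.82, 4.53, 3.48 and 3.50 in ROR1xTCL1 replicates 1 to 4, against 4.35, 3.12, 4.24 and 3.57 in TCL1 replicates 1 to 4, a difference of 0.76 ± 0.68 (SE) with overlapping groups.

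The wider adhesion machinery was examined through 7 lists with 98 entries, of which 78 were measured. None of the 78 was called (limma, adjusted over all genes), 1 had an unadjusted p under 0.05, against 1.63% of all genes, and the groups failed to overlap for 1, against 1.1%. The mean was lower in ROR1xTCL1 for 43 (55.1%) and higher for 35, with a median difference of -0.008. The gene under 0.05 was Nectin3, an immunoglobulin-like adhesion molecule of adherens junctions, which read 2.89, 2.93, 2.80 and 2.96 on ROR1xTCL1 arrays a to d, against 2.55, 2.60, 2.62 and 2.85 on TCL1 arrays a to d. TCL1 array d lay inside the ROR1xTCL1 range, and the difference was 0.24 ± 0.10 (SE, adjusted p = 1.0 in limma). The gene without overlap was Dsc3, a desmosomal cadherin, at 2.12 to 2.25 in ROR1xTCL1 and 2.28 to 2.36 in TCL1, a difference of -0.12 ± 0.09 (SE). Both were below the array median on all arrays.

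Within the lists, the nectins held the largest difference. Nectin1, another adherens junction molecule, read 10.1, 6.73, 5.58 and 5.40 on ROR1xTCL1 arrays a to d, against 5.17, 5.73, 5.06 and 5.03 on TCL1 arrays a to d. ROR1xTCL1 array a stood far above the rest, and the difference of 1.71 ± 0.91 (SE) had an interval of -0.36 to 3.79. Of the 15 desmosomal genes measured, 5 were higher and 10 lower, with Dsg2, a desmosomal cadherin, at 0.31 ± 0.30 (SE). Of the 17 tight junction partners, 7 were higher and 10 lower. Among them Crb3, a polarity protein, differed by 0.33 ± 0.16 (SE) and Tjp3, a scaffold that binds claudin tails, by -0.20 ± 0.14 (SE). Neither had an adjusted p under 0.05.

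The remaining lists were split between directions as well. Of the 9 protocadherins, 5 were higher and 4 lower, with Pcdh17 at 0.22 ± 0.12 (SE) and Pcdh8 at -0.11 ± 0.10 (SE). Of the 9 atypical cadherins, 3 were higher and 6 lower, with Ret, a receptor kinase that carries cadherin repeats, at -0.11 ± 0.13 (SE) and Clstn2, a calsyntenin, at -0.06 ± 0.12 (SE). Of the 15 genes related to catenins or binding them, 9 were higher and 6 lower, with Ctnnal1, a relative of alpha-catenin, at -0.17 ± 0.12 (SE) and Actn4, an actin cross-linker, at 0.14 ± 0.12 (SE). The Wnt-pathway partners of beta-catenin in this list, Lef1 and Tcf7, were above the array median on all arrays and differed by 0.10 ± 0.49 and -0.17 ± 0.31 (SE). These last 2 were named after their values were seen.

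Repressors of E-cadherin transcription, which bind the E-box, were measured beside it. Of the 6 in the table, 3 were higher and 3 lower in ROR1xTCL1, with Snai1 at 0.17 ± 0.18 and Snai3 at 0.14 ± 0.11 (SE). Zeb1 and Zeb2, named after their values were seen, were the 2 above the array median on all 8 arrays. Zeb1 averaged 7.51 ± 0.23 on ROR1xTCL1 arrays against 7.49 ± 0.17 on TCL1 arrays, and Zeb2 averaged 8.55 ± 0.52 on ROR1xTCL1 arrays against 8.65 ± 0.39 on TCL1 arrays (SD of 4 arrays).

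Start-site windows of the members, from 250 bases before to 50 after the annotated start, were read from RefSeq (GRCm38.p6) for 30 of the 44 genes in 43 windows. Cdh1, Cdh5, Cdh17, Cldn13 and Ctnna1 were among the genes without a window, so the start site of E-cadherin was not searched. The E-box was searched as CACCTG and the GC box as GGGCGG, on both strands. The E-box was found in 9 of the 43 windows (20.9%), against 20.2% of 32851 mouse windows, and the GC box in 20 (46.5%), against 35.7%. Windows of a gene with several starts were each counted and can share sites, as those of Ctnnb1 did. The windows below show the members at the ends of the differences, neither of them called. They are Ctnnb1 (chr9:120933150-120933449, plus strand) with the largest positive and Cldn1 (chr16:26371790-26372089, minus strand) with the largest negative difference. Cldn4 (chr5:134946885-134947184, minus strand), a claudin below the median on all arrays, is an example of a window with the E-box. A link of the E-box to level was not tested with these windows. Each is written 5′ to 3′ on the gene's strand, with E-boxes and GC boxes in capitals, which do not overlap in these windows.
Ctnnb1: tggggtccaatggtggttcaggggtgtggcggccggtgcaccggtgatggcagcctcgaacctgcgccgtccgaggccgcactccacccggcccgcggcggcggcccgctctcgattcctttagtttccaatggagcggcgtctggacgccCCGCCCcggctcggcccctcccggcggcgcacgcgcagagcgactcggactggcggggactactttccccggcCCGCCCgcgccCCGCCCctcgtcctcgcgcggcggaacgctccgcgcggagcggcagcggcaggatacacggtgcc
Cldn1: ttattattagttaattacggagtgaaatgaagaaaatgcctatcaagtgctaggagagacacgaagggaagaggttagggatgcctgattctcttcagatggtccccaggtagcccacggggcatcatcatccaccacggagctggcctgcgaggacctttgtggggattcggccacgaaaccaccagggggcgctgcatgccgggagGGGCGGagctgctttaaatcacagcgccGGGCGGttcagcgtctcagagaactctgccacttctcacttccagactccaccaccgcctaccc
Cldn4: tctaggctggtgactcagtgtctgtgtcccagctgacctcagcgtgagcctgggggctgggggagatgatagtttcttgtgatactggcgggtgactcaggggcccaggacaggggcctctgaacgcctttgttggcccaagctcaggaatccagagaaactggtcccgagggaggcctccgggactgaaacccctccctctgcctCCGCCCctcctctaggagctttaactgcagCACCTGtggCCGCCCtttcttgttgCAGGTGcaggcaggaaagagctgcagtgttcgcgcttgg
The Ctnnb1 window shown held 3 GC boxes and 0 E-boxes, the Cldn1 window 2 GC boxes and 0 E-boxes, and the Cldn4 window 2 of each. A match is a run of letters and not evidence of binding. Cldn4 read 4.21 to 4.53 in ROR1xTCL1 and 3.99 to 4.62 in TCL1.

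Several members lie side by side in the genome, as listed by RefSeq for protein-coding genes: 8 neighbouring pairs were found. Cldn4 and Cldn3, on chromosome 5, differed by 0.06 and 0.15. Cdh10 and Cdh12, on chromosome 15, differed by -0.03 and -0.11. Cldn6 and Cldn9, on chromosome 17, differed by 0.12 and 0.02. On chromosome 8, Cdh3 and Cdh1 differed by 0.01 and 0.08, and Cdh11 and Cdh5 by -0.05 and -0.10. Cdh8 and Cdh11, also there, went opposite ways at 0.06 and -0.05. So did Cldn17 and Cldn8, on chromosome 16, at 0.19 and -0.09. Cldn1 and Cldn16, on chromosome 16, differed by -0.90 and 0.0018, so the high value of Cldn1 on TCL1 array a was not matched by its neighbour Cldn16, a kidney claudin of magnesium transport, at 3.74 on that array.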

How the data were processed

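Total RNA of leukemia cells was measured on 1 array per mouse, 4 ROR1xTCL1 and 4 TCL1. The authors deposited a gene table of 16495 rows, whose scale is not stated and was taken as log2 (range 0.89 to 12.6), and a table of 1236087 probe sets in log2, made by RMA with the package oligo per the labels and, per the submitters' processing notes, R 2.15.1. The series design credits the Affymetrix Exon Array Computational Tool with the array processing; the method of the gene summary was not given in the sources used here. Both are relative within an array, and the number of arrays limits the precision. Trailing blanks were removed from 2303 names, 4 numeric rows left out and 72 repeated names averaged, leaving 16419 genes. Genes and probe sets were fitted with limma 3.58.1 in R 4.3.3 (lmFit, eBayes, ROR1xTCL1 minus TCL1, 2-sided, no filter), with Benjamini-Hochberg adjustment over the whole table; the fit was tested on simulated data. The members and lists were chosen with earlier results of these data known; 1 erythroid marker is not reported here and was left out of its list. Named members were those above the array median on all arrays, the 5 largest differences each way, the widest range per family, any with an array apart from its group, and the 2 smallest p per list. Replicate numbers were not taken as pairs. Alternatives changed the variance prior, filter, scaling, gene summary, replicates and replicate block, and a term for high Y-linked values was added after seeing the data.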

Additional observations from a re-analysis of the deposited data

Results flagged for a closer look

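An array stood apart from the others of its group, by Dixon's criterion on the gap to its nearest neighbour at the 95% critical value, for 9 of the 88 member groups examined (10.2%), against 1930 of 32838 groups over all genes (5.88%); chance gives about 1 in 20. In ROR1xTCL1, array a was apart and high for Cdh1 (5.37), Cdh5 (5.71) and Ctnnd1 (5.31) and low for Cdh7 (2.70), and array b was high for Cdh10 (2.27), Cdh20 (3.76) and Ctnna2 (3.27). In TCL1, array a was high for Cldn1 (6.24) and array d low for Cldn13 (6.28). Among the TCL1 arrays, the score of all 44 members was lowest on array c (-0.029), the next being 0.013.

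ROR1xTCL1 array a also had the highest erythroid score (1.66), and TCL1 array a the highest neutrophil score (2.82). Their part in these values was not tested. The Y-linked gene Ddx3y was high on ROR1xTCL1 arrays c (7.70) and d (8.15) and TCL1 array c (7.29), so 2 of 4 and 1 of 4 mice; none of these 3 was an array that stood apart for a single member, whereas TCL1 array c was the one for the score.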

How the results depend on the processing

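With every alternative run, 0 genes and 0 members passed an adjusted p under 0.05. The count of members lower in ROR1xTCL1 was 21 of 44, and 21 to 25 when each array was left out in turn; with the filter on dim genes it was 12 of the 25 left, since fewer were counted. It was 17 with quantile normalization, 18 with probe set medians, and 19 both with probe set means and with the Y-linked term. The median difference lay between -0.015 and 0.022 and the difference in score, -0.0091 with all arrays, between -0.025 and 0.011 with arrays left out. The score differed by 0.047 with probe set medians and 0.025 with probe set means. It differed by 0.013 with quantile normalization and 0.0077 with the Y-linked term, the opposite sign in each of these settings. With the filter on dim genes it differed by -0.034 over the 25 members left, the same sign and a larger size. The cause of these shifts was not tested. Above the first quartile on all 8 arrays there were 23 members and above the third quartile 1, by construction. The sign turned for Cdh10 with quantile normalization (0.022), probe set means (0.042) and medians (0.014), for Cdh12 (0.024), Cdh20 (-0.027) and Cdh7 (0.070) with medians, for Cdh17 (0.011) and Cldn3 (-0.028) with means, and for Ctnnd1 with quantile normalization (0.0021). With the Y-linked term it turned for Cdh5 (0.050), Ctnna1 (-3.6e-05), Ctnna2 (0.0073) and Ctnnd1 (0.011). With arrays left out, the difference spanned 0 for Cdh1 (-0.15 to 0.17), Cdh17 (-0.26 to 0.26), Cdh5 (-0.37 to 0.051), Cdh7 (-0.10 to 0.052), Cldn13 (-1.05 to 0.12), Ctnna1 (-0.27 to 0.23), Ctnna2 (-0.15 to 0.031) and Ctnnd1 (-0.37 to 0.15). It kept its sign for Cldn1 (-1.14 to -0.31), Ctnnb1 (0.23 to 0.53), Cldn5 (0.081 to 0.55), Cldn12 (-0.33 to -0.039), Cldn3 (0.031 to 0.23), Cldn17 (0.077 to 0.28) and Cdh20 (0.066 to 0.21). No member had an unadjusted p under 0.05 in limma with all arrays of the gene table; Cldn13 did without ROR1xTCL1 array a, Cldn12 without ROR1xTCL1 array b, Ctnnb1 without TCL1 array c and Cldn9 with probe set medians.

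The replicate numbers of the titles were not taken as pairs, because not every pair of same-numbered samples correlated above 0.1 in its deviations: the values were 0.233, -0.0061, 0.217 and 0.111. For 3 of the 4 numbers the samples correlated best with their own number, which is a hint from the data and not from the design. With the replicate block on probe set means, 0 genes passed and 574 of 22378 had an unadjusted p under 0.05, against 423 without it. Every number occurs once in each group, so the block cannot change a difference between groups. The differences of Cdh10 (0.042), Cdh17 (0.011) and Cldn3 (-0.028) were therefore the same with and without it. With 4 arrays a group, no normal B cells and no measure of sex, age or cell purity beyond marker genes, the precision for small shifts is limited, and changes relative to healthy cells were not measured.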
